A study of Mus musculus with 20 samples.

Results

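The 30 genes described here are markers of cells other than T cells: 20 of macrophages, 3 of B cells, 3 of the MHC class II pathway and 4 of erythroid cells. They were chosen by name, with no threshold on their values but with earlier results of these data known, and were followed in RNA-seq libraries of purified mouse T cells as a guide to RNA carried over from other cells of the spleen and lymph node. All 30 were found among the 23992 gene symbols of the deposited tables, each represented by the transcript with the most reads over the 20 libraries. Reads on genes ranged from 20201392 to 63903764 per library. Of the 30, 29 passed the filter on low counts in the Treg fit (15009 genes). The exception was Vsig4, a complement receptor of tissue macrophages, with 13 reads in all libraries together.

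Tregs (regulatory T cells, which are CD4+ and depend on Foxp3) came from B6-Foxp3EGFP mice. They were enriched with a CD4+ isolation kit and then sorted for GFP. CD8+ T cells came from C57BL/6J mice through an isolation kit alone, although the strain field of all libraries reads C57BL/6N. Each cell type was left unstimulated (0 hr) or was exposed for 1.5 hr or 4 hr to 1 of 2 cytokines at 200 nM, IL-2 itself or its variant IL-2-REH, a partial agonist of the same receptor. That gave 5 groups per cell type, with 15 Treg libraries numbered 1 to 3 within a group, and 5 CD8+ libraries, 1 per group. All cytokine-treated libraries were also later in time than the unstimulated ones, so the cytokine and the time after isolation cannot be told apart. The 2 cell types also differed in strain and in purification, so these cannot be told apart from cell type either. How many mice stood behind a library is not given in the sources used here, and p-values measure the spread between these libraries.

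Macrophages of the splenic red pulp take up aged red blood cells, break down their heme and return the iron to the plasma, and their identity depends on the transcription factor Spi-C. They also make complement C1q and receptors for dying cells. B cells carry the antigen receptor with its signalling chains Cd79a and Cd79b and present peptides on MHC class II, which dendritic cells and macrophages do as well. The spleen of a mouse also makes red blood cells, whose precursors contain large amounts of globin RNA. None of these genes serves to define a T cell, yet single members can also be transcribed in T cells, so a marker is a guide and not a count of cells. In bulk RNA, fewer cells of a type and less RNA per cell cannot be told apart.

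The labels of the libraries were checked first. Foxp3 lay between 65.0 and 252 RPKM (reads per kilobase of exon, scaled to the mapped reads of the library) in the 15 Treg libraries and at most 1.0 in the 5 CD8+ libraries, and Cd8a between 103 and 256 RPKM in CD8+ libraries and at most 1.84 in Treg libraries. By comparison, the 20 macrophage genes together summed to between 18.5 and 171 RPKM in Treg libraries and between 14.7 and 64.9 RPKM in CD8+ libraries.

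**Figure D1:**
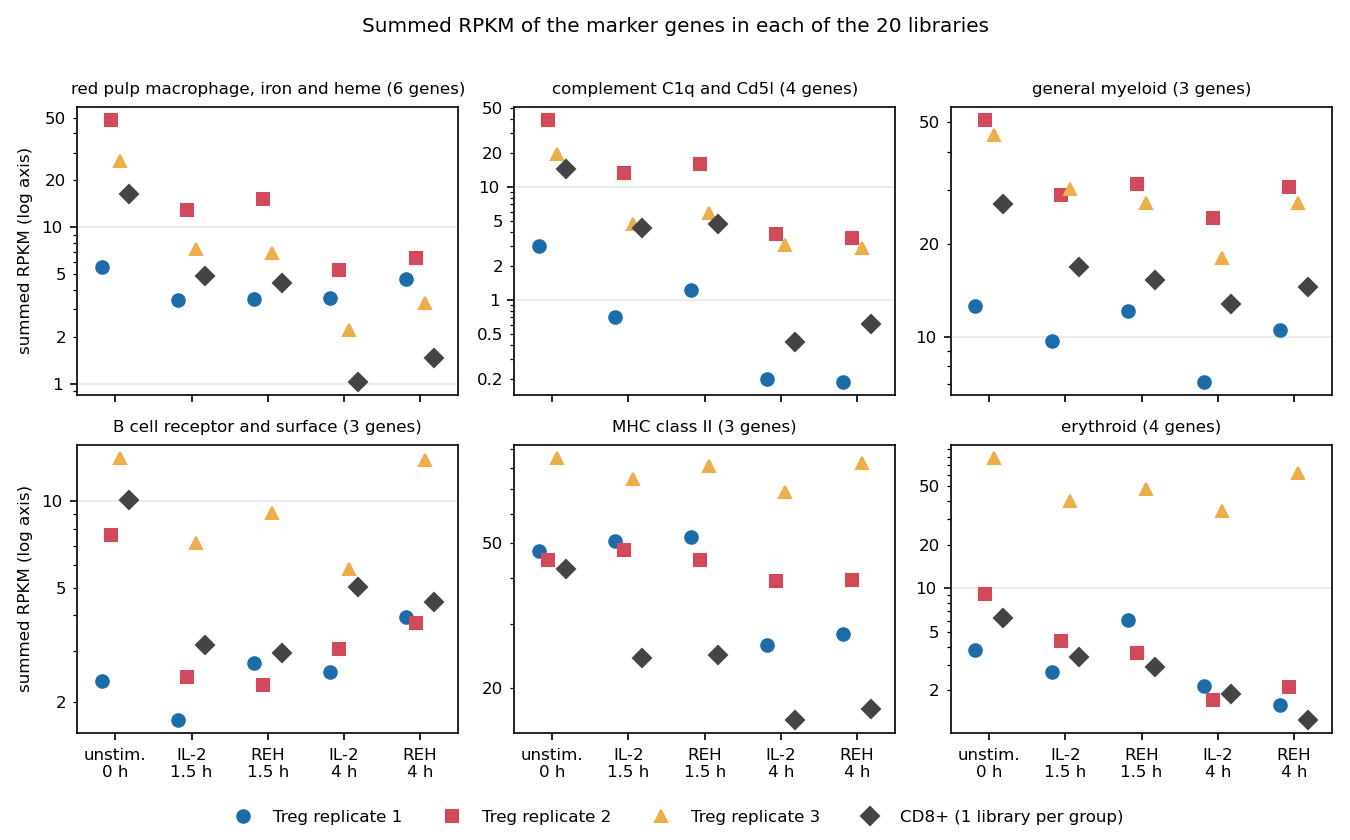
Summed RPKM (log axis) of 6 groups of marker genes in each of the 20 libraries, with the 5 conditions along the horizontal axis. Circles, squares and triangles are Treg replicates 1, 2 and 3, and diamonds are the CD8+ libraries. The 4 genes of complement C1q and Cd5l reached 39.4 RPKM in unstimulated Treg replicate 2 and lay at 0.419 RPKM in CD8+ T cells after 4 hr of IL-2, while the erythroid genes of Treg replicate 3 (33.9 to 78.5 RPKM) lay above those of all other libraries.

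The genes of red pulp macrophages come first. Vcam1 (chr3:116110020-116129688 of GRCm38, minus strand) is an adhesion molecule of these macrophages and of endothelium. Its level in Treg replicate 2 was 10.7 RPKM unstimulated, 3.07 after 1.5 hr and 0.603 after 4 hr of IL-2, and 3.68 and 0.629 at the same times of IL-2-REH. Treg replicate 3 gave 6.77 unstimulated, 1.81 and 0.205 with IL-2, and 1.69 and 0.369 with IL-2-REH. Treg replicate 1 started lower, at 0.933, and gave 0.160 and 0.0249 with IL-2, and 0.304 and 0.0877 with IL-2-REH. In the CD8+ libraries Vcam1 was at 3.91 RPKM unstimulated, 1.19 and 0.0912 under IL-2, and 1.12 and 0.130 under IL-2-REH. Within each of the 4 series, then, the unstimulated library was the highest, both 1.5 hr libraries were lower and both 4 hr libraries lower still, with either cytokine. Between the series the groups overlapped, since unstimulated replicate 1 lay below both 1.5 hr libraries of replicates 2 and 3. The 8 endothelial and stromal markers together summed to between 0.160 and 1.0 RPKM in Treg libraries.

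Slc40a1 (ferroportin, the iron exporter) had the steepest course in Tregs among the iron genes. Its RPKM in Treg replicates 1, 2 and 3 was 0.252, 9.0 and 3.84 unstimulated, 0.0459, 1.13 and 0.687 after 1.5 hr of IL-2, and 0.0125, 0.163 and 0.0358 after 4 hr of IL-2. With IL-2-REH it was 0.0669, 1.28 and 0.623 at 1.5 hr, and 0, 0.228 and 0.244 at 4 hr. The 0 stands for 0 reads, which allows up to 3 reads or 0.0204 RPKM. In CD8+ T cells the course from unstimulated was 2.84 to 0.417 and 0.0699 RPKM with IL-2, and to 0.518 and 0.0490 with IL-2-REH. After 4 hr of IL-2, 4.96%, 1.81% and 0.933% of the unstimulated level of Slc40a1 remained in Treg replicates 1, 2 and 3, and 2.46% in CD8+ T cells.

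The other genes of that group did not all follow to the same depth. Spic, which encodes Spi-C, went from 3.03 RPKM in unstimulated Treg replicate 2 to 0.249 and 0.280 after 4 hr of IL-2 and IL-2-REH, and from 1.53 to 0.311 and 0.0914 in replicate 3. In replicate 1 it was close to its detection limit throughout, at no more than 0.134 RPKM. Hpgd, which degrades prostaglandins, was at 2.75 and 1.60 RPKM in unstimulated Treg replicates 2 and 3 and at 0.341 and 0.0528 after 4 hr of IL-2. Cd163, the receptor for hemoglobin bound to haptoglobin, retained 17.3% and 23.6% of its unstimulated level in these 2 replicates. Hmox1 (heme oxygenase 1), which opens the heme ring, differed by series: 17.1% and 11.6% of its unstimulated RPKM remained after 4 hr of IL-2 in Treg replicates 2 and 3 and 5.82% in CD8+ T cells, but 81.7% in Treg replicate 1, where it was at 4.01 RPKM before and 3.28 RPKM after.

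Complement C1q is built from 3 chains whose genes lie side by side on chromosome 4, all on the minus strand (C1qb at chr4:136880126-136886200, C1qc at chr4:136889801-136892936 and C1qa at chr4:136895916-136898844 of GRCm38). Of the 30 genes, 18 had an entry in the RefSeq promoter table used here. The 150 bases before the start of C1qb (chr4:136886201-136886350, GRCm38.p6, minus strand, no annotated exon within) are shown because the 3 C1q genes moved together. Capitals mark GAGGAA, the core of the site bound by the myeloid and B cell factor PU.1, found 30 bases before the start when searched on both strands.
C1qb: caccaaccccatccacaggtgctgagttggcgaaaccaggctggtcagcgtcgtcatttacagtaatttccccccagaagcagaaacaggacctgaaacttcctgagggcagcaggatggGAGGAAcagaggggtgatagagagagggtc
The same 6 letters occur in 23.3% of the 32851 promoter windows of 250 bases in that table, so the match is a description of the sequence only.

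C1qa was at 0.788, 10.6 and 5.5 RPKM in unstimulated Treg replicates 1, 2 and 3, and at 3.81 in unstimulated CD8+ T cells. After 4 hr of IL-2 it was at 0.0196, 1.13 and 0.755 RPKM in Tregs and 0.0819 in CD8+ T cells. C1qb and C1qc ran alongside: in unstimulated libraries C1qb was at 0.909, 9.99, 5.42 and, in CD8+, 3.45 RPKM, and C1qc at 0.962, 12.3, 6.48 and 5.10. Cd5l, a secreted protein of tissue macrophages, went from 6.5 to 0.907 RPKM in Treg replicate 2, from 2.28 to 0.163 in replicate 3, from 0.340 to 0.0208 in replicate 1 and from 2.0 to 0.0435 in CD8+ T cells over the 4 hr of IL-2. For all 4 genes, the lowest library of each series was one of the 4 hr libraries. Replicate 1 had 0 reads of C1qc after IL-2 and 0 reads of C1qa and C1qb after IL-2-REH, which allows at most 0.0648 RPKM.

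Several macrophage genes kept a larger share of their level. Lyz2 (lysozyme) was at 9.74, 34.7 and 36.4 RPKM in unstimulated Treg replicates 1, 2 and 3 and at 4.93, 18.7 and 14.3 after 4 hr of IL-2, so that 50.6%, 53.8% and 39.2% remained, with 49.3% in CD8+ T cells. Cd68, a lysosomal glycoprotein, retained 95.7%, 63.7% and 49.1% in Tregs and 67.4% in CD8+ T cells. Csf1r, the receptor for the growth factor CSF1, stood between these and the C1q genes, at 38.6%, 20.8% and 33.9% in Tregs and 18.6% in CD8+ T cells. Up to 17.7% of the 50-base words of Csf1r and 15.4% of those of Lyz2 also occur in other transcripts (Hmgxb3 and Lyz1), so their levels are less certain than those of the C1q genes, which share none.

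Across the 20 macrophage genes, restricted in each series to those with at least 20 reads in the unstimulated library, the median share of the unstimulated level that remained after 1.5 hr of IL-2 was 33.5%, 33.4% and 26.8% in Treg replicates 1, 2 and 3 and 31.2% in CD8+ T cells. With IL-2-REH at 1.5 hr it was 43.5%, 38.6%, 31.1% and 35.7%. At 4 hr the medians were 21.2%, 12.6%, 17.9% and 4.76% with IL-2, and 16.6%, 13.0%, 15.1% and 5.52% with IL-2-REH. The medians of the 4 series thus lay close together at 1.5 hr, and at 4 hr that of CD8+ T cells was the lowest with both cytokines. They cover gene sets that differ between the series. Treg replicate 1 had 15 of the 20 genes, without Spic, Hpgd, Mertk, Marco and Vsig4. Genes also entered by their reads in the unstimulated library alone, so the shares may lean low. The medians are a description and not a test.

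**Figure D2:**
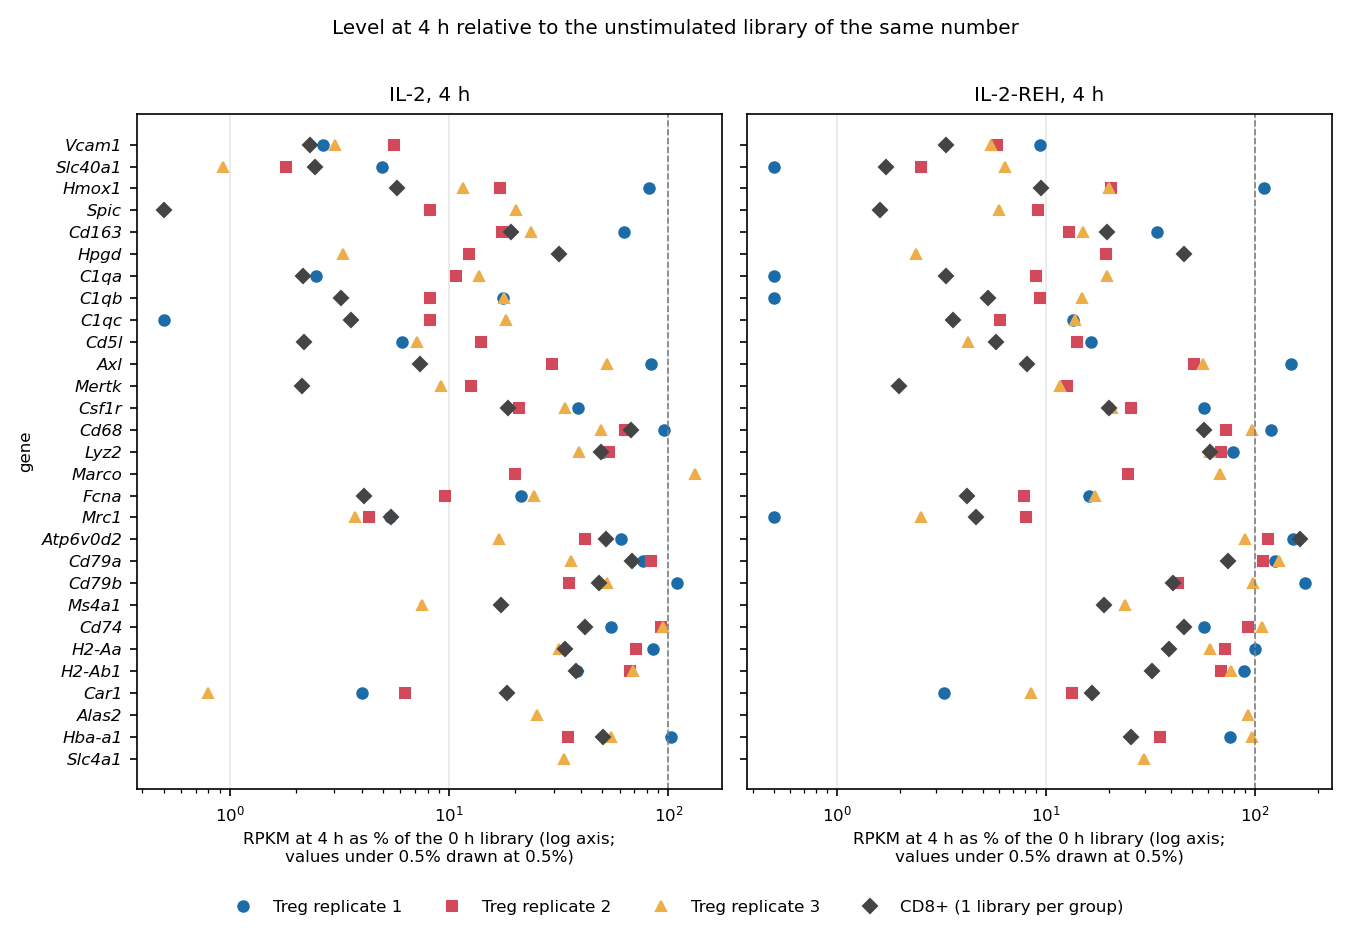
RPKM after 4 hr of IL-2 (left) or IL-2-REH (right) as a percentage of the unstimulated library of the same series (log axis), for members with at least 20 unstimulated reads. Values below the left edge are drawn at that edge, and the dashed line marks 100%. Vcam1 and Slc40a1 lie at or below 9.40% in every series, whereas Cd68 and Lyz2 lie at or above 39.2%.

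For the tests, the reads of all 15 Treg libraries were fitted with edgeR, and the comparisons with unstimulated cells share the same 3 unstimulated libraries. Same-numbered pairs gave the plainest view of direction, although the sources used here do not say what the number stands for. Of the 29 members, 22 were lower in all 3 pairs after 4 hr of IL-2, against 19.8% of all 15009 genes tested, and 18 after 4 hr of IL-2-REH, against 15.3%. After 1.5 hr, 21 members were lower in all 3 pairs with IL-2 (17.4% of all genes) and 17 with IL-2-REH (16.1% of all genes). In the CD8+ pairs, 27 of 29 members were lower after 4 hr of IL-2, against 58.3% of all genes, and 27 after IL-2-REH, against 51.3%.

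In a fit with 1 mean per group, which leaves the differences between replicate numbers in the error, few members passed an adjusted p of 0.05. With IL-2 at 4 hr it was 1 of 29, Car1, whereas 1.10% of all genes were called lower, and after 4 hr of IL-2-REH it was 0, with 0.153% of all genes called lower. At an unadjusted p of 0.05, 11 members passed in each of these 2 comparisons, beside 17.7% and 13.3% of all genes. With the replicate number as a block, the same comparison called 17 members after 4 hr of IL-2, all lower (4.06% of all genes were called lower), and 14 after 4 hr of IL-2-REH, all lower (2.02% of all genes). The 17 were Car1 and 16 of the 19 macrophage genes tested, all but Spic, Cd68 and Marco, and the 14 were Car1 and 13 macrophage genes. DESeq2 without the block called 8 and 6 members (7.20% and 4.19% of all genes). Leaving out all replicate 1 libraries from the fit without the block raised the counts to 15 and 13 (13.4% and 10.7% of all genes). Leaving out replicate 2 or replicate 3 gave 0 members, but hardly any gene was called in those fits. For IL-2 at 4 hr it was 0.0197% of all genes without replicate 2 and 0.0719% without replicate 3. For IL-2-REH it was 0 in both.

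With the block, the log2 fold change after 4 hr of IL-2 was -5.71 ± 0.49 (SE) for Slc40a1 (adjusted p = 3.2e-05), -4.59 ± 0.35 for Vcam1 (adjusted p = 1.2e-05) and -4.62 ± 0.55 for Mrc1, the mannose receptor (adjusted p = 0.00046). C1qa fell by 3.31 ± 0.52 on the log2 scale, Cd5l by 3.37 ± 0.41, Fcna (ficolin A, a lectin that activates complement) by 2.50 ± 0.51, Csf1r by 1.65 ± 0.27 and Lyz2 by 1.0 ± 0.17. Without the block the same log2 fold changes had errors several times wider, -4.34 ± 1.30 for Vcam1 (adjusted p = 0.10) and -5.71 ± 1.62 for Slc40a1 (adjusted p = 0.086). The median log2 fold change of the 19 macrophage genes was -2.57 without and -2.27 with the block, beside -0.0017 and -0.016 over all genes. After 4 hr of IL-2-REH it was -2.82 and -3.01.

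At 1.5 hr, the fit without the block called 0 members with either cytokine, beside 0.853% and 0.0933% of all genes. At an unadjusted p of 0.05 it was 3 for IL-2 and 0 for IL-2-REH, below the 13.8% and 11.4% of all genes, and DESeq2 called 0 members beside 4.10% and 0.763% of all genes. With the block, 4 fell after IL-2 (Vcam1, Slc40a1, Cd5l and Mrc1) and 2 after IL-2-REH (Vcam1 and Slc40a1), beside 0.460% and 0.0200% of all genes called lower. From 1.5 hr to 4 hr, over both cytokines, Car1 alone was called without the block, at a log2 fold change of -2.74 ± 0.75 (adjusted p = 0.038), against 9.65% of all genes called in either direction. With the block 14 members were called, all lower, against 21.2% of all genes called in either direction. Among these were Vcam1 at -2.57 ± 0.23, Slc40a1 at -2.76 ± 0.32, C1qa at -1.76 ± 0.36, H2-Aa at -0.65 ± 0.21 and Slc4a1 at -1.80 ± 0.54.

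Further genes of the same cell types, listed alongside the members, were counted in the same comparisons with the block. After 4 hr of IL-2, 7 of 19 further macrophage genes were called, all lower (Cybb, Itgad and Siglec1 among them), and after 4 hr of IL-2-REH 4 of them were, again with these 3. Of 15 further B cell genes 3 and 2 were called lower, of 5 further class II genes 1 and 1, of 14 further erythroid genes 3 and 1, and of 10 neutrophil genes 1 and 1. Over all genes, 4.06% and 2.02% were called lower after 4 hr of IL-2 and IL-2-REH with the block. The median log2 fold change of the further macrophage genes was -1.26 and -0.93, smaller in size than that of the members (-2.27 and -3.01).

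A pair of genes listed as macrophage markers, Axl and Atp6v0d2, did not follow most of the other macrophage genes between replicate numbers or cell types. Hmox1 departed from most of them as well: it was not called by replicate number and was called lower in CD8+ T cells. Axl, a receptor that binds dying cells through bridging ligands, was at 6.32, 12.8 and 10.9 RPKM in unstimulated Treg replicates 1, 2 and 3. It was at 5.25, 3.76 and 5.74 after 4 hr of IL-2 and at 9.41, 6.51 and 6.19 after 4 hr of IL-2-REH. In CD8+ T cells it was at 2.36 RPKM unstimulated and at 0.174 and 0.193 at 4 hr. Replicate 1, the lowest in most macrophage genes, thus lay between or above the other 2 replicates in Axl at 4 hr. All 3 libraries with IL-2 at 4 hr were below all 3 unstimulated ones, and with the block Axl fell by 0.93 ± 0.26 on the log2 scale (edgeR, adjusted p = 0.046). Its relative Mertk was low and followed the C1q genes in 2 Treg replicates (1.03 to 0.130 RPKM in replicate 2 and 0.555 to 0.0511 in replicate 3 with IL-2 at 4 hr), and did not exceed 0.122 RPKM in replicate 1.

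Atp6v0d2, a subunit of the proton pump that acidifies lysosomes, was at 3.28, 3.08 and 4.85 RPKM in unstimulated Treg replicates 1, 2 and 3, and at most 0.226 RPKM in any CD8+ library. After 4 hr it was at 1.99, 1.28 and 0.822 RPKM with IL-2 and at 5.0, 3.57 and 4.37 with IL-2-REH, the latter being 153%, 116% and 90.2% of the unstimulated level. All 3 Treg libraries with IL-2-REH were above all 3 with IL-2 at that time. The log2 difference between the cytokines was 1.60 ± 0.36 (95% interval 0.83 to 2.37, unadjusted p = 0.00054, adjusted p = 0.29) without the block and 1.61 ± 0.26 (1.06 to 2.16, adjusted p = 0.041) with it. In CD8+ T cells it was at 0.0708 RPKM under IL-2 and 0.226 under IL-2-REH at 4 hr, and had from 8 to 41 reads per library over the 5 libraries.

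**Figure D3:**
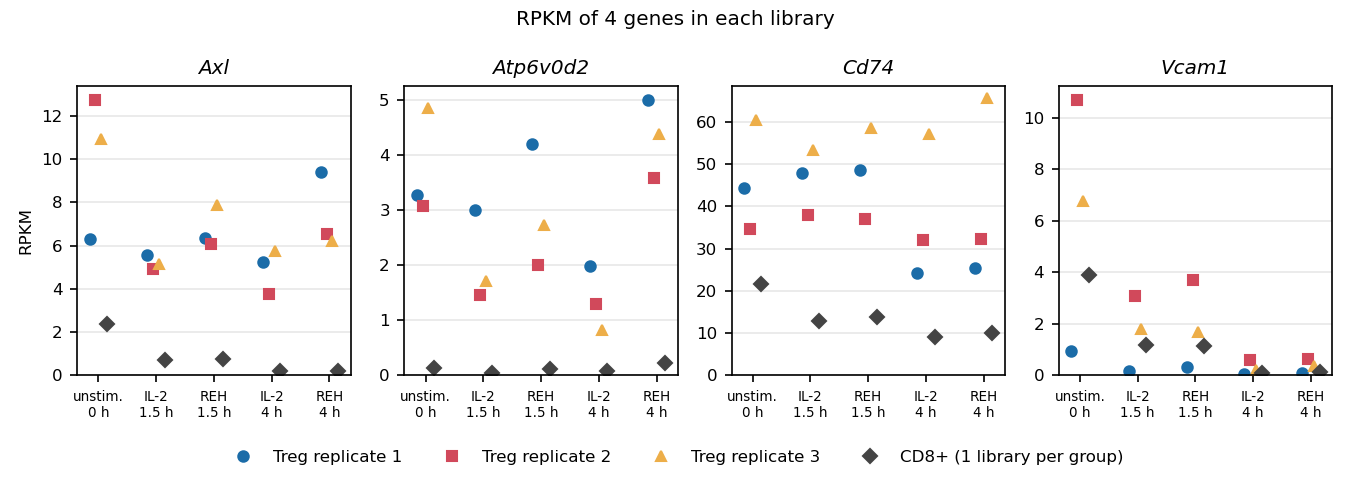
RPKM of Axl, Atp6v0d2, Cd74 and Vcam1 (linear axes from 0) in each of the 20 libraries by condition, with circles, squares and triangles for Treg replicates 1 to 3 and diamonds for CD8+ T cells. Atp6v0d2 lay between 3.57 and 5.0 RPKM in the Treg libraries with IL-2-REH at 4 hr and between 0.822 and 1.99 in those with IL-2, and Vcam1 was highest in the unstimulated library of each series.

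No other member differed between the cytokines by the test. Of the 29 members, 0 were called without the block at 1.5 hr and 0 at 4 hr (0.0133% and 0.0267% of all genes), and with the block 0 at 1.5 hr and 1, Atp6v0d2, at 4 hr (0.0133% and 0.0666%). DESeq2 called 0 and 1 (0.456% of all genes at 4 hr). By direction alone, 11 members were higher with IL-2-REH than with IL-2 at 4 hr in all 3 same-numbered pairs (26.2% of all genes) and 2, Cd163 and Fcna, were lower (12.6%). The intervals were wide for most. The half-width of the 95% interval of the log2 difference at 4 hr ran from 0.58 (Axl) to 4.81 (Slc4a1) with a median of 2.57 without the block, and from 0.36 (Lyz2) to 1.79 (Spic) with a median of 0.95 with it. For Vcam1 at 4 hr the interval with the block was -0.15 to 1.33, for C1qa -1.04 to 1.21 and for Cd74 -0.44 to 0.50. Such intervals leave room for differences between IL-2 and IL-2-REH of up to about these sizes in either direction.

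Among the B cell genes, Cd79a was at 0.291, 0.764 and 4.51 RPKM in unstimulated Treg replicates 1, 2 and 3, at 0.223, 0.637 and 1.62 after 4 hr of IL-2, and at 0.363, 0.836 and 5.89 after 4 hr of IL-2-REH. Replicate 3 was the highest of the 3 in every group. The CD8+ libraries lay between 0.714 and 1.28 RPKM. Cd79b was higher, at 2.0, 6.75 and 7.70 RPKM in unstimulated Tregs, and was at 8.38 RPKM in unstimulated CD8+ T cells. In CD8+ T cells it was at 4.07 and 3.42 RPKM after 4 hr of IL-2 and IL-2-REH, and at 1.5 hr at 2.17 and 2.1, so that its lowest CD8+ libraries were those at 1.5 hr. Ms4a1 (CD20) was at 1.95 RPKM in unstimulated Treg replicate 3 and at 0.147 to 0.773 in the other libraries of replicate 3, and did not exceed 0.127 RPKM in replicates 1 and 2. Of its unstimulated level, 7.54% remained after 4 hr of IL-2 in replicate 3 and 17.2% in CD8+ T cells, on 10 and 11 reads. No B cell gene was called against unstimulated cells in any of the 4 comparisons, with or without the block.

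Cd74, the invariant chain that guides MHC class II molecules through the cell, had the highest median RPKM of the 30 genes over the Treg libraries. It was not the highest in every library. Lyz2 lay above it in CD8+ T cells after 4 hr of IL-2-REH (11.1 beside 9.92 RPKM) and level with it in unstimulated Treg replicate 2. Its RPKM in unstimulated Treg replicates 1, 2 and 3 was 44.4, 34.7 and 60.4, and over the 15 Treg libraries it lay between 24.3 and 65.7, with a median of 44.4. After 4 hr of IL-2 it was at 24.3, 32.2 and 57.2, so that 54.8%, 92.8% and 94.6% remained, beside 2.67%, 5.64% and 3.03% of Vcam1 in the same libraries. In CD8+ T cells Cd74 was at 21.7 RPKM unstimulated and at 9.01 and 9.92 after 4 hr of IL-2 and IL-2-REH, or 41.6% and 45.8%. The lowest Treg library was thus above the highest CD8+ library.

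The alpha and beta chains of the class II molecule I-A, H2-Aa and H2-Ab1, lie near each other on chromosome 17 and were less abundant. H2-Aa is shown with the 150 bases before its start (chr17:34287824-34287973, GRCm38.p6, minus strand, no annotated exon within), with capitals on CTGATTGG, the Y box shared by class II promoters. It was found 51 bases before the start, and on either strand the 8 letters occur in 3.83% of the 32851 promoter windows.
H2-Aa: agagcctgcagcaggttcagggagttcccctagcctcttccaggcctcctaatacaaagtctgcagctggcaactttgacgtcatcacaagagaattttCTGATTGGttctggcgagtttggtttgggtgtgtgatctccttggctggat
H2-Aa was at 1.57, 6.09 and 15.2 RPKM in unstimulated Treg replicates 1, 2 and 3 and at 12.7 in unstimulated CD8+ T cells. H2-Ab1 had the same order, at 1.39, 4.15, 9.71 and 8.11 RPKM. H2-Aa retained 84.7%, 71.1% and 31.9% of its level after 4 hr of IL-2 in Tregs and 33.8% in CD8+ T cells. The ratio of Cd74 to H2-Aa in RPKM ran from 3.98 to 35.5 over the 15 Treg libraries and from 1.69 to 2.09 over the 5 CD8+ libraries, without overlap. No class II gene was called in Tregs against unstimulated cells in any of the 4 comparisons, with or without the block.

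Of the erythroid genes, Car1 (carbonic anhydrase 1) alone was called against unstimulated Tregs. Car1 was at 1.76, 5.21 and 15.8 RPKM in unstimulated Treg replicates 1, 2 and 3, at 0.0708, 0.330 and 0.127 after 4 hr of IL-2, and at 0.0575, 0.699 and 1.35 after 4 hr of IL-2-REH. The CD8+ libraries went from 4.08 to 0.753 and 0.681 RPKM. Each 4 hr library was below the unstimulated library of its series, and all 3 Treg libraries with IL-2 at 4 hr were below all 3 unstimulated ones. Car1 fell after 4 hr of IL-2 in both fits, by 5.32 ± 1.19 on the log2 scale without the block (adjusted p = 0.035) and by 4.93 ± 0.51 with it. This call without the block was lost when replicate 2 (adjusted p = 0.402) or replicate 3 (adjusted p = 0.521) was left out.

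Hba-a1, an alpha globin gene, stood out by replicate number rather than by condition. Its RPKM in Treg replicate 3 was 60.04 unstimulated, 34.7 and 33.03 with IL-2 at 1.5 hr and 4 hr, and 42.9 and 58.6 with IL-2-REH. In Treg replicates 1 and 2 it lay between 1.37 and 5.03 RPKM and in CD8+ T cells between 0.568 and 2.21. No library of replicate 3 overlapped the others. Alas2, the erythroid enzyme of the first step of heme synthesis, had the same split at a lower level, 0.352 to 1.40 RPKM in replicate 3 and at most 0.0898 in replicates 1 and 2. Slc4a1, the band 3 anion exchanger of the red cell membrane, was at 0.352 to 1.20 RPKM in replicate 3 and at most 0.0467 in the other 2. Because 67.5% of the 50-base words of Hba-a1 also occur in its neighbour Hba-a2, its level is uncertain. Hba-a2 had nearly the same RPKM over the 15 Treg libraries, at 1.36 to 59.6 beside 1.37 to 60.04 for Hba-a1. The 2 genes therefore do not give separate values.

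**Figure D4:**
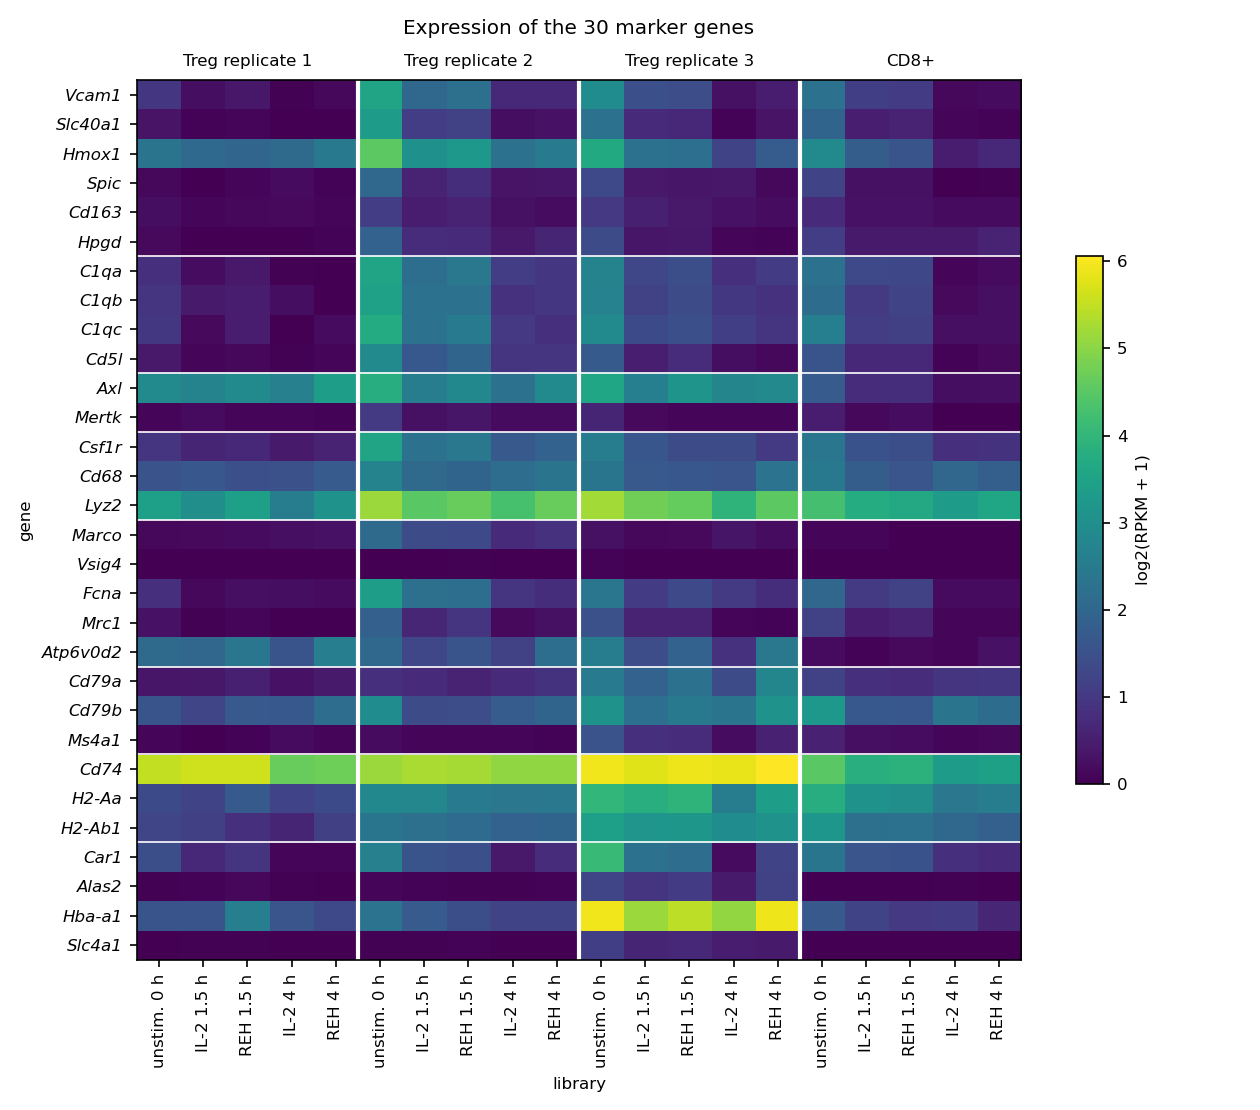
Log2(RPKM + 1) of the 30 genes (rows, grouped by role) in the 20 libraries (columns: Treg replicates 1, 2 and 3, then CD8+ T cells, each in the order unstimulated, IL-2 and IL-2-REH at 1.5 hr, IL-2 and IL-2-REH at 4 hr). Cd74 is high in all Treg libraries (24.3 to 65.7 RPKM) and Hba-a1 is high in replicate 3 only (33.03 to 60.04 RPKM). Within replicate 2, within replicate 3 and within CD8+ T cells, most macrophage genes are brightest in the unstimulated column.

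Whether the members differed between replicate numbers was tested within the same edgeR fit, with group and number as terms. Of 29 members, 27 were called, against 19.0% of all 15009 genes. The exceptions were Axl (adjusted p = 0.43) and Hmox1 (adjusted p = 0.079). Without replicate 1 the count was 12 (1.51% of all genes), and it was at most 23 when any 1 number was left out. Of all genes, 9.58% were called without replicate 2 and 17.3% without replicate 3. Replicate 2 was above replicate 1 in 20 members and below it in 1, Atp6v0d2 (7.02% and 9.81% of all genes were called higher and lower). Replicate 3 was above replicate 1 in 24 members (8.10% of all genes). Between replicates 3 and 2, 9 members were higher in 3 and 2 were lower, Cd5l and Marco (1.05% and 0.240% of all genes).

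The 2 replicates that were richer in this RNA differed in kind. Marco, a scavenger receptor of marginal zone macrophages, was at 0.653 to 3.25 RPKM in the 5 libraries of replicate 2, at 0.0973 to 0.219 in replicate 1 and at 0.102 to 0.274 in replicate 3, with a log2 difference between replicates 3 and 2 of -3.05 ± 0.47 (adjusted p = 0.0037). In CD8+ T cells it did not exceed 0.0656 RPKM, or 8 reads. Cd5l was lower in replicate 3 than in replicate 2 by -2.07 ± 0.28 on the log2 scale. The 9 genes higher in replicate 3 were the 3 B cell genes, the 3 class II genes, Hba-a1, Alas2 and Slc4a1. Among them the log2 difference from replicate 2 was 4.65 ± 0.32 for Hba-a1, 2.52 ± 0.24 for Cd79a, 1.29 ± 0.22 for H2-Aa and 0.97 ± 0.17 for Cd74.

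Of the other marker lists, those of neutrophils and erythroid cells were highest in replicate 3. The further macrophage genes differed little in sum, with means of 109, 124 and 122 RPKM in Treg replicates 1, 2 and 3. The 20 macrophage members had means of 26.2, 81.8 and 58.9 RPKM. The 10 neutrophil genes summed to between 83.4 and 285 RPKM in Treg replicate 3, between 4.14 and 9.67 in replicates 1 and 2, and between 3.38 and 5.56 in CD8+ T cells. S100a8 and S100a9, the most abundant of them, reached 81.0 and 120 RPKM in Tregs, and 8 of the 10 were called by replicate number, beside 19.0% of all genes. The 14 other erythroid genes found summed to between 119 and 211 RPKM in replicate 3 and to at most 42.2 in replicates 1 and 2. They include Hba-a2, whose RPKM was nearly that of the member Hba-a1 (at most 59.6 beside 60.04 in Tregs). This sum is therefore not independent of that member. What part neutrophils and erythroid cells had in the members' levels was not tested. Replicate 3 with IL-2 at 4 hr was also the shallowest library, at 20201392 reads.

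**Figure D5:**
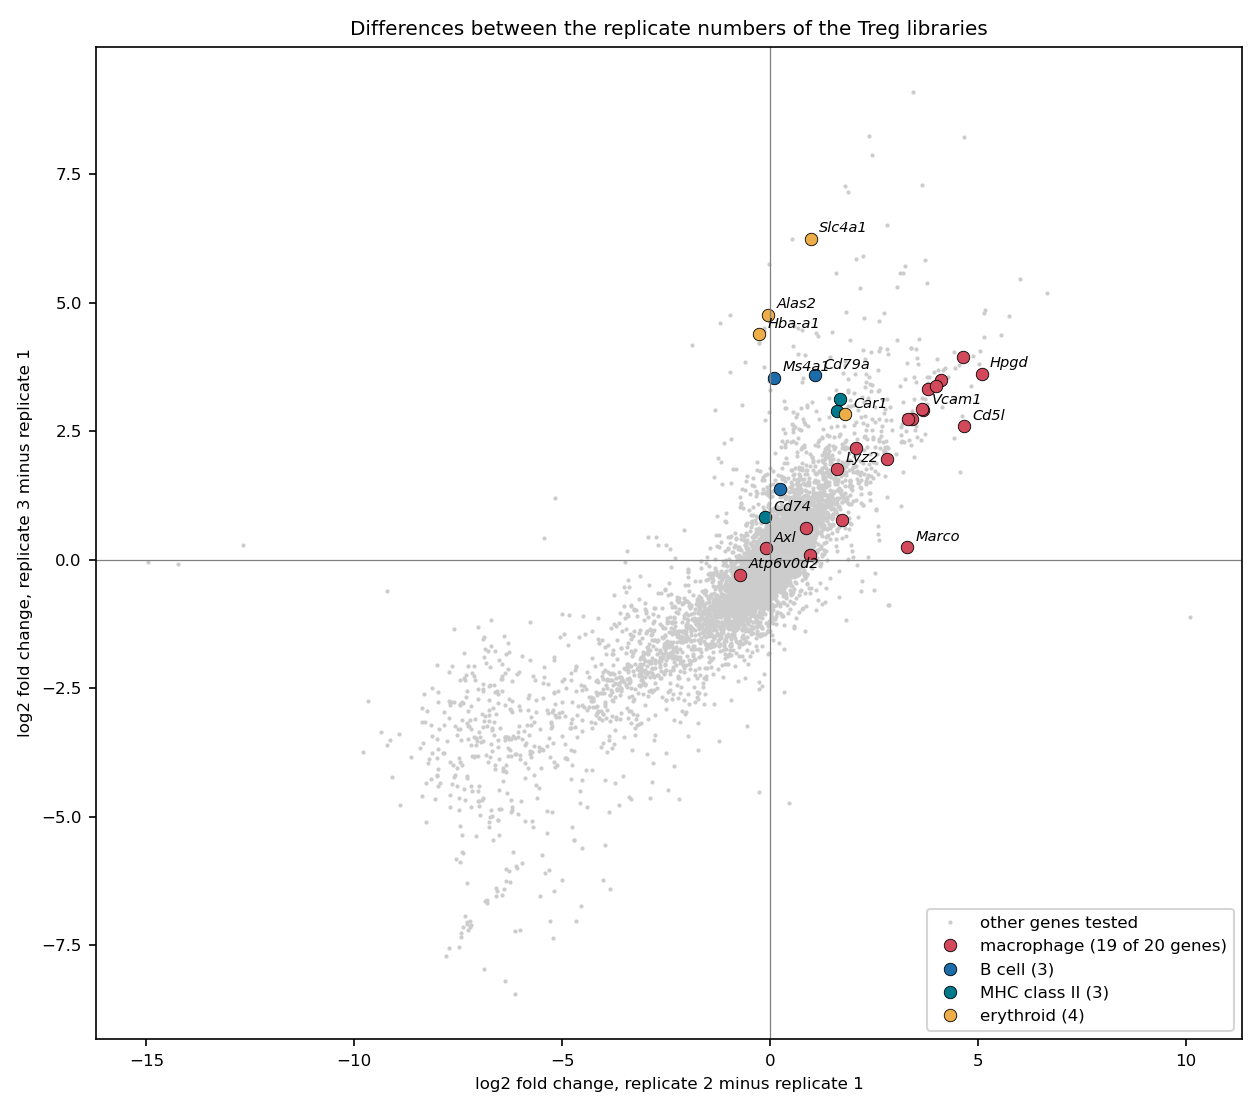
Log2 fold changes of replicate 2 over replicate 1 (horizontal) and replicate 3 over replicate 1 (vertical) for all 15009 genes of the Treg fit (grey) and the 29 members tested (coloured by role). Vcam1 lies at 3.68 and 2.91 with most macrophage genes near it, Marco lies at 3.30 and 0.25, and Hba-a1 lies at -0.26 and 4.39.

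Between the cell types, averaged over the 5 conditions, 8 of 29 members were called, all lower in CD8+ T cells, where 40.8% of 15153 genes were called in either direction and 23.1% lower, so the share of members called was close to that of all genes. All 5 CD8+ libraries carry replicate number 1 and were fitted as independent, so any deviation they share is not in the errors. The Treg libraries were also fitted as independent, with no term for replicate number, although same-numbered ones deviated together. The p-values may therefore be too small. The 8 were Axl at a log2 difference of -3.29 ± 0.38, Atp6v0d2 at -4.53 ± 0.30, Hmox1 at -1.51 ± 0.39, Marco at -4.39 ± 1.08, Cd74 at -1.68 ± 0.28, Alas2 at -4.78 ± 1.62, Hba-a1 at -3.75 ± 1.31 and Slc4a1 at -6.91 ± 2.21. Marco was high in Treg replicate 2 alone, and the last 3 in replicate 3 alone. The count was 20 without Treg replicate 1 (45.3% of all genes), and 2 when only the unstimulated libraries were compared (4.76%). For the C1q genes and Vcam1 the difference did not pass the test, at -0.94 ± 0.83 for C1qa (adjusted p = 0.37) and -0.84 ± 0.67 for Vcam1 (adjusted p = 0.33), and the CD8+ level of these 2 genes lay within the range of the Treg replicates in every condition. That of C1qb did so in all but 1, the 4 hr IL-2 library, where it was at 0.111 RPKM beside 0.159 to 0.969 in Tregs.

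Whether the change with cytokine and time differed between CD8+ T cells and Tregs was asked with an interaction term in a fit of all 20 libraries (16399 genes), a test chosen after the values had been seen. Of 29 members, 0 passed in each of 6 comparisons, in which at most 0.0122% of all genes were called. At an unadjusted p of 0.05 at most 1 member passed, Axl, beside 0.305% to 2.14% of all genes. With 1 CD8+ library per group, the CD8+ values have no error of their own in this fit.

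Over the 15 Treg libraries, the members fell into sets by Pearson's correlation of log2(RPKM + 1), given as a description since the libraries share 5 conditions and 3 replicate numbers. With Vcam1, r was 0.982 for Mrc1, 0.971 for C1qa, 0.960 for Slc40a1, 0.850 for Car1, 0.777 for Lyz2, 0.550 for Axl, 0.141 for Cd74 and 0.044 for Atp6v0d2. With Cd79a, r was 0.975 for Alas2, 0.933 for Hba-a1, 0.875 for H2-Aa, 0.880 for H2-Ab1 and 0.306 for C1qa. Among 11654 genes compared, the 5 outside the 30 that were most like Vcam1 were Pitpnm2, Chn2, Tm6sf1, Dtx1 and Itgad (r from 0.978 to 0.984). Among those most like Cd79a were the neutrophil genes Retnlg, S100a8, S100a9 and Ngp (0.963 to 0.981). Most like Alas2 were Lcn2, Ms4a3, Prtn3, Elane and Ctsg (0.978 to 0.985), genes of granulocytes and their precursors, and most like Cd74 were Mpo, Sertad1, Hba-a2, Hbb-b2 and Hbb-bt (0.824 to 0.840), the last 2 with identical values.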

How the data were processed

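The mRNA of 20 libraries was read as 50 bp single-end reads. Per the submitters' processing notes and the methods, the authors mapped them to mm10 with Bowtie2 2.2.6 and TopHat2 2.1.1 and kept uniquely mapped reads. They deposited read counts on the exons of 31682 RefSeq transcripts, without normalization, and beside the counts the deposited RPKM. Whether strand was used is not given in the sources used here, so overlapping genes are uncertain. Reads on genes per library ran from 20201392 to 63903764, and no 2 libraries were identical (0 pairs).

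Counts were tested with edgeR 4.0.16 in R 4.3.3 (filterByExpr, TMM, quasi-likelihood test, Benjamini-Hochberg adjustment over all genes) with 1 mean per group, and for cell type with condition as a covariate. Same-numbered libraries deviated together (r from 0.12 to 0.84 over 18 pairs, against -0.66 to 0.30 over 36 other pairs), so the numbers in the titles were taken to pair the libraries. Deviations from a group mean cancel within a gene, so a positive r within numbers pushes that of the other pairs down. The pairing was read from the same counts that the fits with the block use. What the number stands for is not given in the sources used here. DESeq2 1.42.0, limma 3.58.1 on log2(RPKM + 1), the longest transcript, other filters and left-out replicates were alternatives. Members and lists were chosen with earlier results of these data known. All 30 members are named, other lists by counts with the most abundant genes, and the 5 genes most like Vcam1, Cd79a, Cd74 and Alas2, apart from items that are not reported here. Promoters are from RefSeq (GRCm38.p6). Shared 50-base words were counted in GENCODE M21 transcripts.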

Additional observations from a re-analysis of the deposited data

How the results depend on the processing

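With the replicate number as a block, the counts of members called became 4 and 2 of 29 at 1.5 hr of IL-2 and IL-2-REH (0 and 0 without it), 17 and 14 at 4 hr (1 and 0), 1 between the cytokines at 4 hr (0) and 14 from 1.5 hr to 4 hr (1). The block changed no other count. For the comparison of CD8+ T cells with Tregs, no paired analysis was possible because they share 1 number only. DESeq2 called 8 and 6 members at 4 hr of IL-2 and IL-2-REH, 1 between the cytokines at 4 hr, 4 from 1.5 hr to 4 hr (21.5% of all genes) and 5 between cell types (41.8% of all genes), where edgeR called 8. By limma on log2(RPKM + 1), 0 were called from 1.5 hr to 4 hr and 4 between cell types. The share of all genes called by limma was not counted, so these counts cannot be set beside it. In unstimulated libraries alone edgeR called 2 between cell types. Leaving out 1 replicate gave 0 to 4 and 0 to 1 members at 1.5 hr, 0 to 15 and 0 to 13 at 4 hr, 0 to 0 between the cytokines, 0 to 10 from 1.5 hr to 4 hr, 12 to 23 by replicate number and 6 to 20 between cell types. Over all genes those fits called 0% to 17.3% and 0% to 15.7% at 1.5 hr, and 0.0197% to 13.4% and 0% to 10.7% at 4 hr. They called 0% between the cytokines, 0% to 23.1% over time and 1.51% to 17.3% by replicate number. Between cell types it was 38.4% to 45.3% when a Treg replicate was left out. The highest counts of members against unstimulated cells, over time and between cell types were those without replicate 1. The cause was not tested. Over all genes the calls at 4 hr were 341 for IL-2 and 47 for IL-2-REH, against 1028 and 582 by DESeq2 and 1038 and 455 with the block, and at 1.5 hr 128 and 14, against 553 and 109 by DESeq2 and 275 and 32 with the block. The 60 gene and comparison pairs followed through the alternatives were those called in the fit without the block or with it. Of their 573 alternative values, 445 kept their side of the threshold, 103 moved past it, 25 moved out of it and 0 changed direction. The block is itself among the alternatives. Part of the moves past the threshold was therefore fixed by the choice of pairs, and these counts do not measure robustness.

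Counting error limits the low members. A value of 0 reads allows up to 3 reads, or 0.0091 to 0.0648 RPKM, in 13 values of the members other than Vsig4, and these limits cover counting error only. The CD8+ libraries have no replicates, and groups of 3 are too small for a test of single outlying libraries.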

Other observations

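Markers of cell types outside the 30 genes also differed between the libraries. The 6 NK cell genes summed to between 20.3 and 45.1 RPKM in the CD8+ libraries and between 0.537 and 10.4 RPKM in Treg libraries, and all 6 were called higher in CD8+ T cells by edgeR's quasi-likelihood test, beside 17.8% of all genes. Of 5 platelet and megakaryocyte genes, 4 were called higher in CD8+ T cells, with sums of 4.20 to 7.08 RPKM beside 0.449 to 4.33 in Tregs, and 9 of 10 neutrophil genes were called lower, beside 23.1% of all genes. The neutrophil genes were high in Treg replicate 3, at 83.4 to 285 RPKM, while Treg replicates 1 and 2 (4.14 to 9.67) lay near the CD8+ libraries (3.38 to 5.56). The dendritic cell genes summed to between 4.72 and 17.3 RPKM in CD8+ libraries and between 2.45 and 8.23 in Treg libraries. By replicate number, 6 of 6 NK cell genes, 4 of 8 dendritic cell genes, 2 of 4 platelet genes and 3 of 5 endothelial and stromal genes were called in Tregs, beside 0 of 5 genes of Treg identity and 19.0% of all genes.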
